A study of Mus musculus with 6 samples.

Results

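The genes described here are 40 members of the 2 stress programs that cells run when proteins misfold in the endoplasmic reticulum (ER) or when amino acids run short, measured by RNA-seq in cultured mouse retinal ganglion cells (RGCs). They form a list of gene symbols that was chosen with earlier results of these data known. The symbols were matched through the Ensembl gene identifier of each count table. The 40 genes fell into an Atf4 arm of 20 genes and a chaperone arm of 20 genes, and they are 40 of the 43346 Ensembl mouse genes in the tables. Of the 15747 genes with enough counts to be tested, 39 were members, since the cystine transporter gene *Slc7a11* was removed for low counts. The question was how the 2 arms stood to each other in the control, Sox11 and Sox11 K91A cultures.

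RGCs were purified by immunopanning with CD90.1, the antigen encoded by *Thy1*, and grown on PDL and laminin in a defined medium with forskolin, BDNF and CNTF. All groups therefore received these trophic additions, and all received an AAV2 vector with EGFP: EGFP alone in the control, Sox11 with EGFP, or Sox11 K91A with EGFP, in which the lysine of Sox11 that can carry a SUMO group is replaced by alanine. Virus was added 4 h after plating to wells of 250000 cells, at 1.5 μl per well or about 100000 vector genomes per cell, and RNA was extracted at 72 h. Each group had 2 replicates, and nothing states whether they came from separate cultures. The p-values therefore measure the spread between these libraries, and how much of it is technical was not tested. Replicates differed by more than counting error would give. Their mean chi-square per gene was 105 in control, 60.0 in Sox11 and 22.5 in Sox11 K91A. The age of the cells is given as embryonic day 18 in the extraction protocol and postnatal day 2 in the growth protocol. The promoter of the vectors is not given in the sources used here, EGFP-positive cells were not sorted before RNA extraction as far as the protocols say, and in these bulk libraries fewer cells of a type and less RNA per cell cannot be told apart.

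As background, unfolded protein in the ER is sensed by 3 membrane proteins, encoded by *Eif2ak3* (PERK), *Ern1* (IRE1) and *Atf6*. PERK phosphorylates the initiation factor eIF2, as do kinases that sense amino acid shortage, which slows translation but favours the translation of Atf4, and Atf4 then activates genes for amino acid synthesis and uptake, redox balance and, when stress persists, cell death. IRE1 splices the *Xbp1* mRNA, and spliced Xbp1 and cleaved Atf6 activate genes for ER chaperones, disulfide isomerases and ER-associated degradation. In RGCs the PERK branch is known as part of the response of the neuron to axon injury. Gene-level counts show neither the splicing of *Xbp1* nor the translation of *Atf4*, so only mRNA amounts are described.

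The 2 arms differ in the DNA elements known to serve them, and matches to these elements are shown for members of each arm. Promoter windows of RefSeq (250 bases before to 50 bases after the annotated start, build GRCm38.p6) were found for 36 of the 40 members, of which *Atf5*, *Psat1* and *Slc7a1* have more than 1 window, while *Atf6*, *Hyou1*, *Manf* and *Slc7a5* were not matched. Both strands were searched for the C/EBP-ATF response element (CARE, TGATGNAA), to which Atf4 binds with a C/EBP partner, and for the ER stress response elements ERSE (CCAAT, then 9 bases of any kind, then CCACG) and ERSE-II (ATTGG, then 1 base of any kind, then CCACG), to which Atf6 and Xbp1 bind. CARE is in 3.97% of all 32851 windows, ERSE in 0.119% and ERSE-II in 0.0365%. In the Atf4 arm, 5 of the 19 matched genes hold CARE (*Asns*, *Chac1*, *Nupr1*, *Slc7a11* and *Trib3*) and 0 hold ERSE or ERSE-II. In the chaperone arm, 7 of the 17 matched genes hold ERSE (*Calr*, *Canx*, *Creld2*, *Dnajc3*, *Hsp90b1*, *Hspa5* and *Pdia6*), 2 hold ERSE-II (*Dnajb11* and *Herpud1*) and 1 holds CARE (*Herpud1*). A match describes letters and is not evidence of binding. The CARE matches of 4 genes whose values are given below read as follows, 30 bases each on the strand of the motif with the motif in capitals.
Asns (chr6:7693214-7693243, minus strand): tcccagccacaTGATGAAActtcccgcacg
Chac1 (chr2:119351038-119351067, minus strand): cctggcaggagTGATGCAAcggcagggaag
Nupr1 (chr7:126625562-126625591, plus strand): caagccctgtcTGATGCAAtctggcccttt
Trib3 (chr2:152344028-152344057, plus strand): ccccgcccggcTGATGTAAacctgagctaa
The ERSE matches of the 4 most abundant chaperone genes are shown in the same way, with both matches of *Hsp90b1*, which lie on opposite strands.
Hspa5 (chr2:34772020-34772049, plus strand): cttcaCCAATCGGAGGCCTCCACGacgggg
Hsp90b1 (chr10:86705528-86705557, plus strand): actcaCCAATCGTGCCTCACCACGcactct
Hsp90b1 (chr10:86705632-86705661, minus strand): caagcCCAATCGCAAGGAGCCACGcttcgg
Calr (chr8:84847070-84847099, plus strand): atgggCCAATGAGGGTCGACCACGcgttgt
Canx (chr11:50325794-50325823, minus strand): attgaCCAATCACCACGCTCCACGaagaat
*Herpud1* is shown over 91 bases of its own strand because it is the member with elements of both arms: CARE, read here as its reverse complement, comes first and ERSE-II second, both in capitals.
Herpud1 (chr8:94386307-94386397, plus strand): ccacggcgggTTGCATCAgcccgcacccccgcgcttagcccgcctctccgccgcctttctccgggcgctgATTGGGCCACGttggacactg

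Counted from the RefSeq start, the CARE of *Asns* was the nearest of the upstream matches, from 23 to 16 bases upstream. That of *Chac1* lay from 193 to 186 bases upstream and that of *Trib3* from 15 to 22 bases downstream of the RefSeq start. The ERSE of *Hspa5* lay from 65 to 47 bases upstream, and those of the other ERSE genes lay further upstream. In GENCODE M21, annotated exons of the same gene reach into the printed stretches of *Asns*, *Nupr1*, *Trib3* and *Hspa5*, and the stretches of *Chac1*, *Hsp90b1*, *Calr*, *Canx* and *Herpud1* hold no annotated exon. Against the GENCODE gene start, the printed motifs of *Asns*, *Nupr1* and *Hspa5* lie downstream and that of *Trib3* lies upstream.

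**Figure D1:**
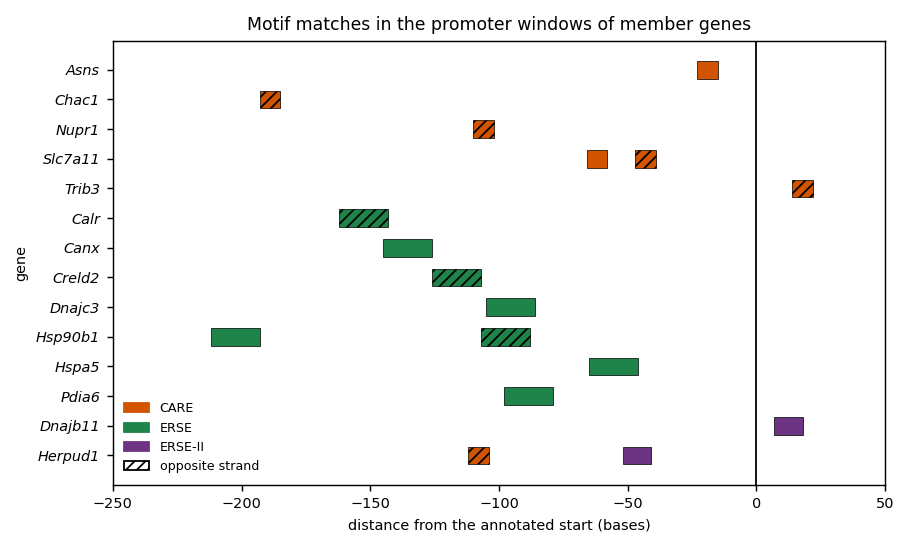
Position of each CARE (orange), ERSE (green) and ERSE-II (purple) match in the promoter windows of member genes, as the distance in bases from the annotated RefSeq start (vertical line at 0), with hatching for matches on the strand opposite to the gene. CARE lies in 5 Atf4-arm genes and in *Herpud1*, and ERSE or ERSE-II lies in 9 chaperone-arm genes.

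The libraries held between 27521982 and 37061718 expected counts. *Sox11* itself was at 234 and 332 CPM (counts scaled to a common library size, with TMM factors) in the control replicates, 9180 and 14600 in the Sox11 replicates and 12000 and 7030 in the Sox11 K91A replicates, so the labels matched the transgene, although gene counts cannot separate the vector from the endogenous gene or the mutant from wild type. The control libraries were separated from the others on principal component 1 (59.1% of the variance). Replicate 2 of control and replicate 2 of Sox11 stood apart on component 2 (19.5%), so counts of calls that rest on a single library are given with and without it. RGC markers were abundant in all libraries, *Gfap* was at 0 in all of them, and the 6 microglial markers summed to between 0.271 and 1.37 CPM.

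In the control cultures the chaperone genes were the more abundant of the members. On the TPM scale, which corrects for transcript length, *Calr* was at 444 ± 8.43 TPM (SD, n = 2), *Hspa5* at 310 ± 5.88, *Hsp90b1* at 308 ± 45.7, *Canx* at 299 ± 33.8, *Atf4* at 298 ± 79.0 and *Pdia3* at 275 ± 56.1. *Calr* stood above the others by more than these spreads, whereas the levels from *Hspa5* to *Pdia3* did not differ beyond theirs. The lowest levels were those of *Trib3* (5.65 ± 0.552 TPM), *Ern1* (4.45 ± 1.58), *Nupr1* (3.88 ± 0.87) and *Slc7a11* (0.095 ± 0.0919). Summed over members, the chaperone arm held 2420 to 2680 TPM in control, 1450 to 1520 with Sox11 and 1390 to 1500 with Sox11 K91A. The Atf4 arm held 1070 to 1370 TPM in control, 787 to 981 with Sox11 and 974 to 989 with Sox11 K91A. For both arms the ranges of the virus groups lay below the control range.

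The members were compared between groups with limma-voom on all 6 libraries, and a gene was called up- or downregulated at an FDR under 0.05, adjusted over all genes tested, and a fold change above 1.2. With Sox11, 12 of the 19 tested Atf4-arm genes were downregulated and 2 were upregulated, and 9 of the 20 chaperone-arm genes were downregulated and 1 was upregulated. Over all genes, 10.2% were downregulated, 9.96% upregulated and 20.1% called in either direction in that comparison. With Sox11 K91A, 2 Atf4-arm genes were downregulated and 2 upregulated, and 7 chaperone-arm genes were downregulated and 0 upregulated, beside 4.81% down, 5.81% up and 10.6% in either direction over all genes. The 11 members past the threshold for Sox11 K91A were all past it for Sox11 too, but both comparisons share the control libraries, and a call in only one of them does not show that the viruses differ. Read without a threshold, the median log2 fold change with Sox11 was -0.91 for the Atf4 arm and -0.56 for the chaperone arm, beside 0.01 over all genes, and with Sox11 K91A it was -0.66 and -0.59, beside 0.02.

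These counts rest on few libraries. Without replicate 2 of Sox11, 0 members and 0 of all 16206 genes tested were called with Sox11 by limma-voom, and without replicate 2 of control, 0 members and 0 of all 16205 genes were called with Sox11 K91A, where the lone library of a group is assumed to vary like the others. Without replicate 1 of Sox11 K91A, 0 members of either arm and 0.116% of all genes were called with Sox11 K91A, and without its replicate 2 the count was 1 in each arm, beside 1.92% of all genes. Without replicate 1 of control, 12 chaperone-arm genes were called with Sox11 K91A, beside 15.5% of all genes. When either replicate of Sox11 K91A was left out, the count for Sox11 in the Atf4 arm was 7, beside 10.4% and 10.1% of all genes, although these libraries add only to the estimate of the spread. The counts given here moved together with the share called over all genes, but this did not hold in every fit. With libraries weighted by quality, 7 Atf4-arm genes were called with Sox11 K91A, against 4 in the fit reported. The share over all genes was then 8.89%, against 10.6%. The direction of no member that was called turned in any of these fits.

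**Figure D2:**
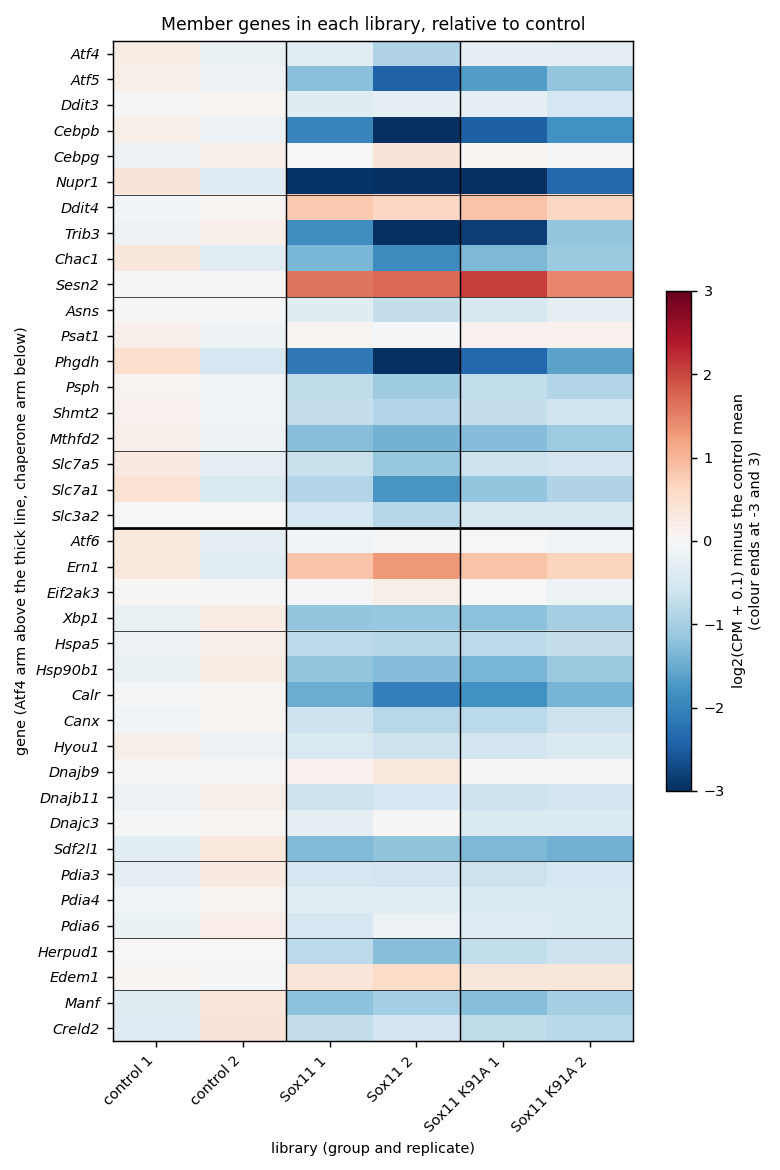
Values of the 39 tested members (rows, the Atf4 arm above the thick line and the chaperone arm below) in the 6 libraries (columns), as log2(CPM + 0.1) minus the mean of the control libraries, with thin lines between the roles within an arm. Most rows are blue in all 4 virus libraries, and *Sesn2*, *Ddit4*, *Ern1* and *Edem1* are red in all 4.

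**Figure D3:**
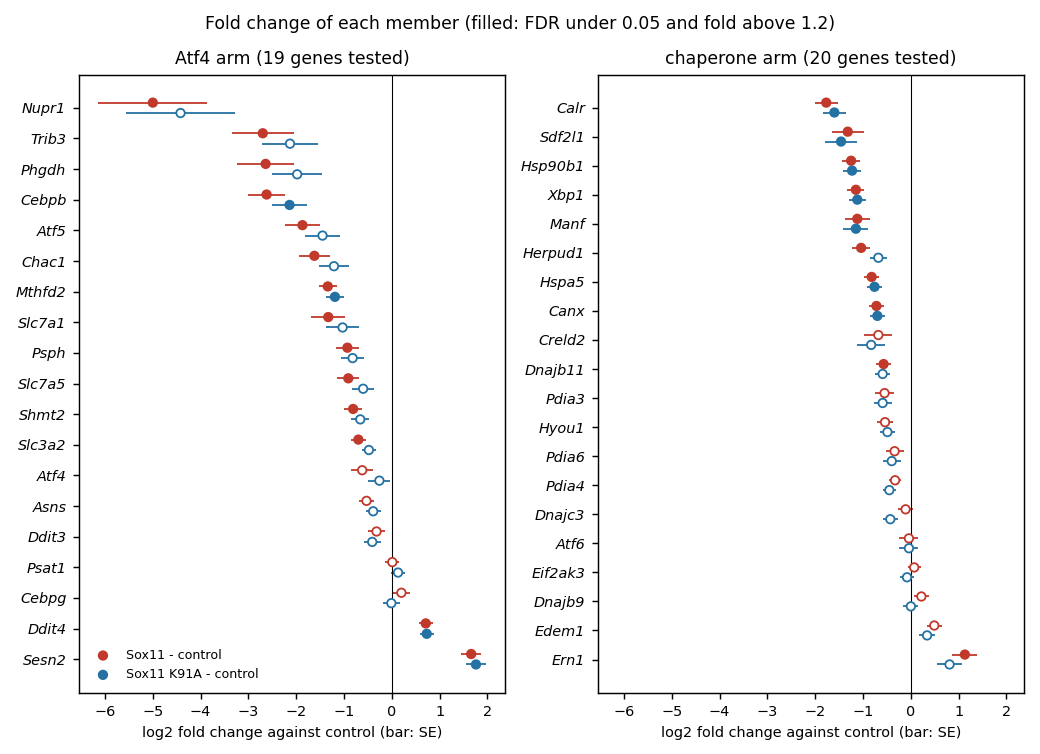
Log2 fold change against control with its SE (bars) for each tested member of the Atf4 arm (left) and the chaperone arm (right), with Sox11 in red and Sox11 K91A in blue. Filled points passed an FDR under 0.05 and a fold change above 1.2: 14 and 10 genes with Sox11, and 4 and 7 genes with Sox11 K91A.

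Among the transcription factors of the Atf4 arm, 3 of 6 were downregulated with Sox11 (*Atf5*, *Cebpb* and *Nupr1*) and 1 with Sox11 K91A (*Cebpb*). The shares of all genes downregulated were 10.2% and 4.81%. *Atf4* (ENSMUSG00000042406.7, chr15:80255184-80257541, plus strand), the central factor of this arm, was at 271 and 202 CPM in the control replicates, 185 and 126 with Sox11 and 197 and 195 with Sox11 K91A. All 4 virus libraries lay below both controls, but neither difference passed, with a log2 fold change of -0.62 (SE 0.23, limma-voom adjusted p = 0.094) for Sox11 and -0.26 (SE 0.23, adjusted p = 0.49) for Sox11 K91A. *Atf5*, a factor of the same family that is controlled by eIF2 phosphorylation in a similar way, was at 162 and 127 CPM in control, 59.8 and 26.4 with Sox11 and 44.5 and 62.7 with Sox11 K91A. It fell by 1.87 on the log2 scale with Sox11 (SE 0.37, limma-voom adjusted p = 0.021), while the value for Sox11 K91A was -1.45 (adjusted p = 0.051). *Cebpb* (chr2:167688915-167690418), a C/EBP factor, gave 29.5 and 22.8 CPM in control against 6.44 and 2.84 with Sox11 and 4.69 and 7.30 with Sox11 K91A. This was 6.14-fold lower with Sox11 (log2 fold change -2.62, SE 0.39, limma-voom adjusted p = 0.013) and 4.41-fold lower with Sox11 K91A (-2.14, SE 0.36, adjusted p = 0.022). *Nupr1*, a small stress-induced chromatin factor, held 35 and 27 counts in the control libraries, 1 and 0 with Sox11 and 0 and 3 with Sox11 K91A. It passed with Sox11 (limma-voom adjusted p = 0.029) and not with Sox11 K91A (adjusted p = 0.054). Scaled by library size, its summed counts were 56.5 times higher in control than with Sox11 (95% counting interval 9.78 to 2270) and 19.1 times higher than with Sox11 K91A (6.23 to 95.0), and these intervals cover counting error only.

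*Ddit3* (CHOP), the factor that links persistent ER stress to cell death, was slightly lower in the virus libraries. It stood at 15.4 and 16.6 CPM in control, 12.4 and 13.3 with Sox11 and 13.0 and 11.1 with Sox11 K91A. The virus libraries lay below both controls, and the log2 fold changes of -0.32 (SE 0.18, limma-voom adjusted p = 0.24) and -0.41 (SE 0.18, adjusted p = 0.18) did not pass. In GENCODE M21 its exons overlap those of *Mars* on the other strand and of a second entry under the same symbol, and whether the counting used strand is not stated, so its reads are uncertain. *Cebpg*, the C/EBP partner of Atf4 on CARE sites, overlapped between groups, with 0.20 for Sox11 and -0.01 for Sox11 K91A on the log2 scale.

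The stress effectors of the Atf4 arm moved in both directions. *Sesn2* (ENSMUSG00000028893.8, chr4:132492032-132510501, minus strand), which encodes sestrin 2, an inhibitor of mTORC1 that senses leucine, was the most upregulated member. It was at 44.9 and 47.6 CPM in control, 141 and 151 with Sox11 and 195 and 127 with Sox11 K91A, and the groups did not overlap. The increase was 3.15-fold with Sox11 (log2 1.66, SE 0.21, limma-voom adjusted p = 0.011) and 3.39-fold with Sox11 K91A (log2 1.76, SE 0.21, adjusted p = 0.014). *Ddit4* (REDD1), another inhibitor of mTORC1 and named here after its values were seen, rose by 0.71 with Sox11 (SE 0.15, limma-voom adjusted p = 0.025) and by 0.73 with Sox11 K91A (SE 0.15, adjusted p = 0.033) on the log2 scale, from 44.7 and 50.2 CPM to between 72.8 and 85.4 CPM in the virus libraries. Both are also known as targets of other stress pathways, such as p53 and hypoxia.

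*Trib3* and *Chac1*, a pseudokinase that feeds back on Atf4 and an enzyme that degrades glutathione, are known as strong targets of Atf4 and Ddit3, and both fell with Sox11. *Trib3* gave 4.83 and 6.05 CPM in control, 1.42 and 0.513 with Sox11 and 0.683 and 2.33 with Sox11 K91A. Its log2 fold change was -2.70 with Sox11 (SE 0.65, limma-voom adjusted p = 0.032) and -2.13 with Sox11 K91A (SE 0.58, adjusted p = 0.061). *Chac1* gave 22.5 and 14.1 CPM in control, 6.88 and 4.77 with Sox11 and 6.95 and 8.20 with Sox11 K91A, all below both controls. Its log2 fold change was -1.62 with Sox11 (SE 0.33, limma-voom adjusted p = 0.022) and -1.21 with Sox11 K91A (SE 0.31, adjusted p = 0.052). The 4 tested genes with a CARE match, *Trib3*, *Chac1*, *Nupr1* and *Asns*, ranged from -5.00 to -0.53 with Sox11, and 3 of them were downregulated. Of the 14 tested Atf4-arm genes whose windows held no match, 8 were downregulated and 2 upregulated. With Sox11 K91A, 0 of the 4 genes with a match were downregulated, with log2 fold changes from -4.42 to -0.39. Of the 14 without a match, 2 were downregulated and 2 upregulated. The shares of all genes were 10.2% down and 9.96% up with Sox11, and 4.81% and 5.81% with Sox11 K91A. The difference between genes with and without a match was not tested.

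The enzymes of serine, glycine, one-carbon and asparagine metabolism split into genes that fell and genes that stayed near control. Of these 6 genes, 4 were downregulated with Sox11 and 1 with Sox11 K91A, beside 10.2% and 4.81% of all genes. *Phgdh*, the first enzyme of serine synthesis, was at 11.6 and 5.73 CPM in control, 1.78 and 0.905 with Sox11 and 1.52 and 2.61 with Sox11 K91A. It fell by 2.64 on the log2 scale with Sox11 (SE 0.59, limma-voom adjusted p = 0.027), and with Sox11 K91A the value was -1.98 (SE 0.52, adjusted p = 0.055). The step after it, encoded by *Psat1*, was level, at 58.0 and 47.3 CPM in control, 55.6 and 50.1 with Sox11 and 57.7 and 56.9 with Sox11 K91A. *Psph*, the last step of serine synthesis, gave 9.52 and 8.35 CPM in control and between 4.19 and 5.28 in the 4 virus libraries, with a log2 fold change of -0.93 with Sox11 (SE 0.24, limma-voom adjusted p = 0.039) and -0.82 with Sox11 K91A (SE 0.24, adjusted p = 0.071). The first and last genes of this 3-step pathway were thus lower without overlap, and the middle gene overlapped between groups.

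*Mthfd2*, a mitochondrial enzyme of the folate cycle, was the only enzyme gene called with both viruses. It was at 40.3 and 32.1 CPM in control, 14.8 and 13.5 with Sox11 and 14.6 and 16.9 with Sox11 K91A, or on the log2 scale -1.34 (SE 0.19, limma-voom adjusted p = 0.012) and -1.19 (SE 0.19, adjusted p = 0.020). *Shmt2*, which feeds the same cycle from serine, was at 20.1 and 16.9 CPM in control and 11.1 and 9.92 with Sox11, a log2 fold change of -0.81 (SE 0.19, limma-voom adjusted p = 0.031), and at 11.2 and 12.1 CPM with Sox11 K91A (-0.66, SE 0.19, adjusted p = 0.067). *Asns* (asparagine synthetase, ENSMUSG00000029752.8, chr6:7675169-7693254, minus strand), the best known amino acid target of Atf4, did not pass in either comparison. It gave 199 and 192 CPM in control, 153 and 120 with Sox11 and 140 and 159 with Sox11 K91A, with a log2 fold change of -0.53 (SE 0.16, limma-voom adjusted p = 0.062) and -0.39 (SE 0.16, adjusted p = 0.16). Its virus libraries lay below both controls all the same.

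All 3 tested amino acid transporter genes were downregulated with Sox11 and none with Sox11 K91A, beside 10.2% and 4.81% of all genes. Compared directly, Sox11 K91A minus Sox11, they differed by 0.22 to 0.31 on the log2 scale and 0 were called. *Slc7a5*, which imports large neutral amino acids, was at 131 and 89.3 CPM in control, 68.0 and 48.9 with Sox11 and 69.4 and 73.4 with Sox11 K91A. Its log2 fold change was -0.91 with Sox11 (SE 0.23, limma-voom adjusted p = 0.037) and -0.60 with Sox11 K91A (SE 0.23, adjusted p = 0.13). *Slc7a1*, which imports arginine and lysine, was at 106 and 57.7 CPM in control, 42.4 and 23.3 with Sox11 and 35.1 and 41.9 with Sox11 K91A, or on the log2 scale -1.33 (SE 0.36, limma-voom adjusted p = 0.044) and -1.03 (SE 0.35, adjusted p = 0.11). *Slc3a2*, the heavy chain that Slc7a5 needs at the membrane, moved by -0.70 with Sox11 (limma-voom adjusted p = 0.026) and -0.48 with Sox11 K91A (adjusted p = 0.087), and it is named after its values were seen. For each of the 3 genes all 4 virus libraries lay below both controls. *Slc7a11*, the cystine transporter, held 20 and 5 counts in control, 6 and 6 with Sox11 and 4 and 4 with Sox11 K91A, and no difference was detectable at this depth.

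**Figure D4:**
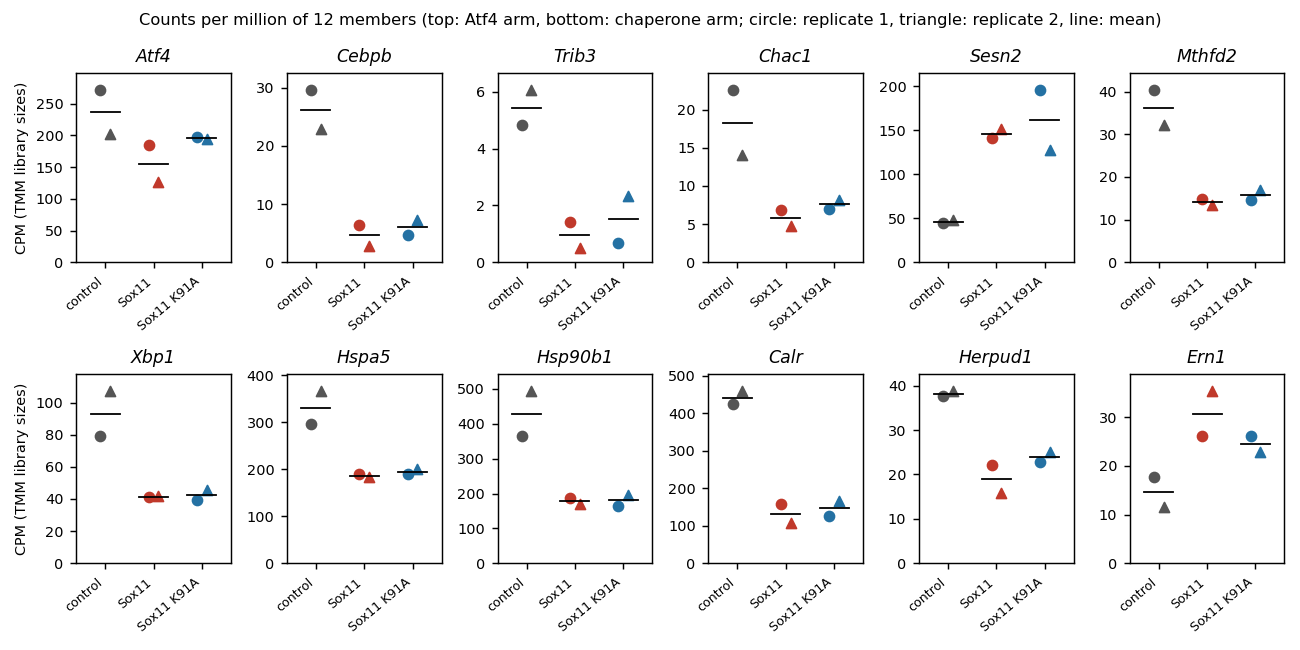
CPM (y axis, from 0) of 12 members in each library, with control in grey, Sox11 in red and Sox11 K91A in blue, circles for replicate 1, triangles for replicate 2 and lines for group means. *Sesn2* and *Ern1* are higher in all 4 virus libraries than in both controls, and the 10 other genes are lower in all 4.

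In the chaperone arm the sensors themselves changed little, apart from *Ern1*. *Ern1* (ENSMUSG00000020715.5, chr11:106394650-106487852, minus strand) was at 17.8 and 11.5 CPM in control, 26.1 and 35.3 with Sox11 and 26.1 and 22.9 with Sox11 K91A, without overlap. It rose 2.18-fold with Sox11 (log2 1.13, SE 0.26, limma-voom adjusted p = 0.028), and for Sox11 K91A the log2 fold change was 0.81 (SE 0.26, adjusted p = 0.091). *Atf6* gave 54.8 and 36.7 CPM in control, 42.7 and 43.7 with Sox11 and 44.7 and 41.7 with Sox11 K91A, or on the log2 scale -0.04 (SE 0.20) for each virus, with limma-voom adjusted p-values of 0.90 and 0.91. *Eif2ak3* gave 56.8 and 53.5 CPM in control, 53.8 and 62.4 with Sox11 and 54.6 and 49.9 with Sox11 K91A, with log2 fold changes of 0.07 and -0.08 (limma-voom adjusted p = 0.74 and 0.77). For these 2 sensors the virus libraries overlapped the controls. *Xbp1* (ENSMUSG00000020484.14, chr11:5520659-5525893, plus strand), the mRNA that IRE1 splices, went the other way from *Ern1*: it was at 79.4 and 107 CPM in control, 41.1 and 41.6 with Sox11 and 39.2 and 45.8 with Sox11 K91A. It fell by 1.15 (SE 0.18, limma-voom adjusted p = 0.014) and 1.12 (SE 0.18, adjusted p = 0.021) on the log2 scale.

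Most of the calls in this arm were of chaperone and cochaperone genes. Of these 9 genes, 6 were downregulated with Sox11 and 5 with Sox11 K91A, beside 10.2% and 4.81% of all genes. *Hspa5* (BiP, ENSMUSG00000026864.9, chr2:34771970-34777547, plus strand), the Hsp70 of the ER and the usual readout of the unfolded protein response, was at 297 and 366 CPM in control, 190 and 183 with Sox11 and 190 and 200 with Sox11 K91A. It fell by 0.82 (SE 0.15, limma-voom adjusted p = 0.018) and 0.76 (SE 0.15, adjusted p = 0.031) on the log2 scale. *Hsp90b1* (Grp94), the Hsp90 of the ER, gave 365 and 493 CPM in control, 187 and 171 with Sox11 and 165 and 196 with Sox11 K91A, or on the log2 scale -1.25 (SE 0.19, limma-voom adjusted p = 0.013) and -1.23 (SE 0.19, adjusted p = 0.020). For these chaperones the virus libraries of both kinds lay close together and well under the controls. *Calr* (calreticulin, chr8:84841850-84846934), a lectin chaperone that also stores calcium, showed the steepest decrease of the arm. It was at 425 and 458 CPM in control, 158 and 106 with Sox11 and 125 and 167 with Sox11 K91A, or on the log2 scale -1.77 (SE 0.24, limma-voom adjusted p = 0.012) and -1.60 (SE 0.24, adjusted p = 0.019). *Canx* (calnexin), its membrane-bound relative, was at 462 and 513 CPM in control and between 274 and 319 in the virus libraries, a log2 fold change of -0.72 (SE 0.16, limma-voom adjusted p = 0.026) and -0.70 (SE 0.16, adjusted p = 0.038).

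The cochaperones were less uniform. *Sdf2l1*, a partner of BiP, gave 5.94 and 9.37 CPM in control, 2.91 and 3.20 with Sox11 and 2.85 and 2.67 with Sox11 K91A. Its log2 fold change was -1.32 with Sox11 (SE 0.33, limma-voom adjusted p = 0.035) and -1.46 with Sox11 K91A (SE 0.33, adjusted p = 0.040). *Dnajb11*, a J-domain cochaperone, gave 86.6 and 109 CPM in control, 62.8 and 68.1 with Sox11 and 63.6 and 65.7 with Sox11 K91A, which passed with Sox11 only (-0.57, SE 0.16, limma-voom adjusted p = 0.045, against -0.59, SE 0.16, adjusted p = 0.057). Its fold changes with the 2 viruses were thus nearly equal, on either side of the threshold. *Hyou1*, *Dnajb9* and *Dnajc3* did not pass, and *Dnajb9*, a target of spliced Xbp1, was at 21.2 and 22.1 CPM in control and between 21.1 and 26.8 in the virus libraries.

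None of the 3 disulfide isomerase genes *Pdia3*, *Pdia4* and *Pdia6* passed, with log2 fold changes between -0.59 and -0.33 over both viruses. Of the degradation factors, *Herpud1*, which recruits misfolded proteins to the ubiquitin machinery and carries elements of both arms, was at 37.7 and 38.7 CPM in control, 22.2 and 15.8 with Sox11 and 22.8 and 25.0 with Sox11 K91A. It fell by 1.04 on the log2 scale with Sox11 (SE 0.19, limma-voom adjusted p = 0.018), and with Sox11 K91A the value was -0.68 (SE 0.18, adjusted p = 0.059). *Edem1*, which extracts misfolded glycoproteins, was higher in all 4 virus libraries, at 24.7 to 29.5 CPM against 20.5 and 18.8 in control, and did not pass (0.49, limma-voom adjusted p = 0.069, and 0.34, adjusted p = 0.21). *Manf*, a secreted factor that is known to protect neurons and that is retained in the ER through BiP, was at 57.8 and 95.2 CPM in control, 31.6 and 36.5 with Sox11 and 30.3 and 36.9 with Sox11 K91A. Its log2 fold change was -1.12 with Sox11 (SE 0.26, limma-voom adjusted p = 0.028) and -1.15 with Sox11 K91A (SE 0.26, adjusted p = 0.038). *Creld2*, a further ER-resident factor, lay lower without overlap and did not pass.

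Of the 9 chaperone-arm genes with an ERSE or ERSE-II match, 6 were downregulated with Sox11 and 4 with Sox11 K91A, with log2 fold changes from -1.77 to -0.11 and from -1.60 to -0.40. Of the 8 genes of this arm whose windows held no such match, 2 were downregulated with each virus and *Ern1* was upregulated with Sox11, with log2 fold changes from -1.32 to 1.13 and from -1.46 to 0.81. In the same fit, 10.2% of all genes were downregulated with Sox11 and 4.81% with Sox11 K91A, and 9.96% were upregulated with Sox11. The motif counts are descriptions of small groups of genes, and the difference between these groups was not tested.

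Counted without a test, 15 Atf4-arm genes and 13 chaperone-arm genes were lower in both Sox11 libraries than in both controls, beside 30.6% of all genes, and 2 and 3 were higher, beside 30.9%. With Sox11 K91A, 15 genes of each arm were lower, beside 30.7% of all genes, and 2 of each arm were higher, beside 31.2%. The members that overlapped with control in both comparisons were *Cebpg*, *Psat1*, *Atf6* and *Eif2ak3*, together with *Slc7a11*, which was not tested.

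To set the arms side by side, the log2(CPM + 0.1) of each tested member was centred on its mean over the 6 libraries and averaged over the arm. The Atf4 arm was at 0.73 and 0.46 in the control replicates, -0.19 and -0.63 with Sox11 and -0.30 and -0.07 with Sox11 K91A. The chaperone arm was at 0.28 and 0.45 in control, -0.17 and -0.14 with Sox11 and -0.24 and -0.18 with Sox11 K91A. Both arms were lower in all 4 virus libraries than in both controls. Taken as the difference of Atf4 arm minus chaperone arm within a library, the values were 0.45 and 0.01 in control, -0.02 and -0.49 with Sox11 and -0.06 and 0.11 with Sox11 K91A. This difference was lower in both Sox11 libraries than in both controls, but control replicate 2 (0.01) and Sox11 replicate 1 (-0.02) were nearly equal. These 2 libraries lay closer to each other than the replicates of either group. Their order also depends on the inclusion of *Nupr1*, which had 0 to 3 counts in the virus libraries, where the added 0.1 largely sets its value. The Sox11 K91A libraries overlapped the controls. The replicates differed as well: Atf4-arm genes were higher in replicate 1 than in replicate 2 for 14 of 19 genes in control, 16 of 19 in Sox11 and 7 of 19 in Sox11 K91A, against 5, 7 and 8 of 20 chaperone-arm genes. The replicates set apart on the second principal component, control replicate 2 and Sox11 replicate 2, are the ones with the lower Atf4 arm. Between these 2 libraries the difference of the arms went from 0.01 in control to -0.49 with Sox11, and between the replicates 1 of the same groups from 0.45 to -0.02. This split was seen in the data and holds 1 library per group on each side, so whether the Atf4 arm fell further than the chaperone arm with Sox11 was not tested.

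**Figure D5:**
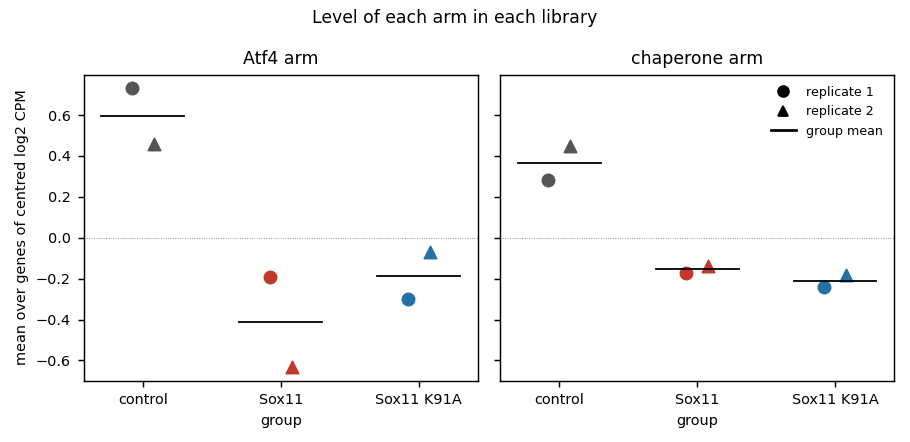
Level of the Atf4 arm (19 genes, left) and the chaperone arm (20 genes, right) in each library, as the mean over genes of log2 CPM centred on each gene's mean over the 6 libraries, with circles for replicate 1, triangles for replicate 2 and lines for group means. Both arms sit lower in all 4 virus libraries than in both controls, and the replicates of the Atf4 arm lie further apart (0.73 and 0.46 in control, -0.19 and -0.63 with Sox11) than those of the chaperone arm.

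Between Sox11 K91A and Sox11, limma-voom called 0 members, with 0 at an unadjusted p under 0.05, beside 0.0% of all genes. By edgeR and by DESeq2 0 members were called, beside 0.0% and 0.0127% of all genes. The log2 differences of the members, Sox11 K91A minus Sox11, ranged from -0.21 to 0.66 in the Atf4 arm, with a median of 0.22 and 17 of 19 above 0, and from -0.32 to 0.36 in the chaperone arm, with a median of -0.03 and 13 of 20 below 0. The median over all genes was 0.01. Without overlap, 6 Atf4-arm genes were higher with Sox11 K91A (*Atf4*, *Chac1*, *Psat1*, *Shmt2*, *Slc7a5* and *Slc3a2*), beside 13.3% of all genes, and 7 chaperone-arm genes were lower and 1 (*Herpud1*) higher, beside 13.4% and 13.3%. The median of the Atf4 arm was -0.03 without replicate 2 of Sox11, the library in which this arm was lowest, so the sign of that difference rests on this library.

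Other genes of the same pathways were read from wider lists. Of 40 tested genes of the Atf4 pathway outside the 40 members, 10 were downregulated and 1 upregulated with Sox11, and 4 and 1 with Sox11 K91A. In either direction this was 27.5% with Sox11, beside 20.1% of all genes, and 12.5% with Sox11 K91A, near the 10.6% of all genes. *Atf3*, a factor induced by Atf4 and by axon injury, was at 30.0 and 38.6 CPM in control and between 3.13 and 6.89 in the virus libraries, a log2 fold change of -2.81 (limma-voom adjusted p = 0.011) and -2.89 (adjusted p = 0.014). *Eif4ebp1*, an Atf4 target that restrains translation, fell by 2.33 (limma-voom adjusted p = 0.014) and 2.45 (adjusted p = 0.020), and *Got1*, aspartate aminotransferase, by 1.41 (adjusted p = 0.018) and 1.11 (adjusted p = 0.043). *Aldh1l2*, a mitochondrial folate enzyme, rose by 1.37 (limma-voom adjusted p = 0.021) and 1.11 (adjusted p = 0.048). Within this list, 5 of 12 aminoacyl-tRNA synthetase genes were downregulated with Sox11 and 0 with Sox11 K91A by limma-voom, beside 10.2% and 4.81% of all genes. Their median log2 fold changes were close, at -0.33 and -0.28, and 0 of them were called between Sox11 K91A and Sox11.

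Of 42 tested genes for other ER folding and degradation steps, 7 were downregulated and 2 upregulated with Sox11, and 4 and 1 with Sox11 K91A. These shares, 21.4% and 11.9% in either direction, were near those of all genes (20.1% and 10.6%). *Ern2*, the paralog of *Ern1* that is known from mucosal epithelia, was at 0.107 and 0.156 CPM in control, 4.77 and 2.84 with Sox11 and 6.83 and 3.94 with Sox11 K91A (log2 4.63, limma-voom adjusted p = 0.018, and 5.16, adjusted p = 0.022). *Creb3l1*, an ER-anchored factor processed like Atf6, fell by 2.24 (limma-voom adjusted p = 0.013) and 1.99 (adjusted p = 0.023), and *Fkbp2*, a lumenal prolyl isomerase, by 2.14 (adjusted p = 0.013) and 1.81 (adjusted p = 0.021). Chaperones of the cytosol and mitochondria were counted beside them: 8 of 18 (44.4%) were downregulated with Sox11 and 5 (27.8%) with Sox11 K91A, beside 10.2% and 4.81% of all genes, with 0 upregulated, and *Bag3* fell by 2.96 (limma-voom adjusted p = 0.012) and 2.54 (adjusted p = 0.019). Decreases among chaperone genes were thus also seen outside the ER, in a list chosen with earlier results of these data known. The number downregulated with Sox11 was 4 with quality weights and 12 with DESeq2, beside 2.87% and 14.1% of all genes.

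Markers of cell types moved in the same comparisons, and their part in the values above was not tested. The 10 RGC markers summed to 10600 to 11400 CPM in control, 5330 to 7970 with Sox11 and 6760 to 8380 with Sox11 K91A. Of these markers, *Nefl*, *Thy1* and *Slc17a6* were downregulated with Sox11 and *Slc17a6* with Sox11 K91A, while *Pou4f1*, *Pou4f2*, *Rbpms* and *Isl1* did not pass with either virus. The 6 amacrine markers summed to 206 and 78.4 CPM in the control replicates, 106 and 34.2 with Sox11 and 91.5 and 96.0 with Sox11 K91A, so replicate 2 of control and of Sox11, in which the Atf4 arm was lower, also held less amacrine RNA. *Xist* was lowest in the same libraries, at 95.9 CPM in control and 254 CPM with Sox11, against 400 to 526 CPM in the others. Which of these differences goes with the Atf4 arm was not tested. The glial sum of 103 to 108 CPM in control and 269 to 313 CPM in the virus libraries was almost all *Glul*, with *Gfap* at 0. Endothelial and pericyte markers summed to at most 11.6 CPM, fibroblast markers to at most 13.1, cycling progenitor markers to at most 2.83 and photoreceptor and bipolar markers to at most 0.931.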

How the data were processed

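Reads had been aligned by the authors with STAR (mm10), and genes quantified with RSEM. Versions, annotation and strand use are not given in the sources used here. The authors deposited 1 table per library with expected counts (80.9% to 82.8% of values whole), TPM, and a posterior SD of each count, which was treated as a score of the deposited RSEM output. The posterior SD was 0 for 36 members and at most 1.63% of the count for *Cebpb* and 1.02% for *Phgdh*. Exons of 13 members overlap another gene in GENCODE M21 (*Atf5*, *Ddit3*, *Cebpb*, *Cebpg*, *Psph*, *Shmt2*, *Eif2ak3*, *Hsp90b1*, *Dnajb9*, *Pdia3*, *Pdia4*, *Pdia6* and *Manf*), so their reads are uncertain.

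Expected counts were rounded, filtered with filterByExpr, scaled by TMM (0.985 to 1.04) and fitted with limma-voom (limma 3.58.1, edgeR 4.0.16, R 4.3.3), all 6 libraries in 1 fit. Tests are two-sided, with Benjamini-Hochberg adjustment over 15747 genes, an FDR under 0.05 and a fold change above 1.2, after the study's methods. The intervals cover counting error only. Errors on TPM are SD over 2 replicates. Alternatives were edgeR's quasi-likelihood test, DESeq2 1.42.0, quality weights, limma-trend on TPM, other scaling, filters and thresholds, unrounded counts, 2-group fits, blocks and leaving out libraries.

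The members and lists were chosen with earlier results of these data known. Values per library are given for members called at least once (at most 12 per arm, by fold change) and for *Atf4*, *Ddit3*, *Asns*, *Chac1*, *Trib3*, *Hspa5*, *Xbp1*, *Atf6*, *Ern1* and *Eif2ak3*, and of each other list at most 4 called genes by fold change. Outside this rule, values are also given for *Psat1* and *Slc7a11*, and control values for *Ddit4*, *Dnajb9* and *Edem1*. Motifs were searched with Python 3.11.15.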

Additional observations from a re-analysis of the deposited data

How the results depend on the processing

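No member changed direction past a threshold under any alternative, but the number called did. Among the members called with Sox11, the call was kept least often for *Psph* (8 of 21 alternatives) and *Dnajb11* (9 of 21). Of the Atf4 arm, 14 genes were called with Sox11 in the fit reported, and 4 with quality weights, 9 with limma-trend on log2(TPM + 0.1) and 8 with only the 2 groups in the fit. For the chaperone arm, 10 genes with Sox11 became 5 with quality weights and 6 with only 2 groups. With Sox11 K91A, the 4 Atf4-arm genes became 13 with DESeq2, 7 with quality weights, library size only, a minimum of 10 counts or the replicate block, 12 at an FDR under 0.1, 14 with a block for the 2 libraries apart on component 2 (replicate 2 of control and of Sox11), and 14 without both of these libraries. The 7 chaperone-arm genes became 13 with DESeq2 and 12 at an FDR under 0.1. Leaving out each library in turn gave 0 to 11 and 0 to 12 genes with Sox11, and 0 to 5 and 0 to 12 with Sox11 K91A, for the Atf4 and the chaperone arm. The share called over all genes moved as well. With Sox11 it was 20.1% in the fit reported, 6.22% with quality weights, 13.4% on log2(TPM + 0.1), 10.4% with only 2 groups and 0.0% to 22.7% leaving out each library. With Sox11 K91A it was 10.6%, and 20.0% with DESeq2, 8.89% with quality weights, 10.5% with library size only, 12.7% with the minimum of 10 counts, 8.9% with the replicate block, 21.3% at an FDR under 0.1, 18.4% with the block for both libraries, 25.8% without both and 0.0% to 15.5% leaving out each. The causes were not tested.

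The median log2 fold change of the Atf4 arm with Sox11 K91A was -0.89 without both libraries, and -0.89 to -0.54 with each library left out. Its median for Sox11 K91A minus Sox11 was -0.03 without both, and -0.03 to 0.36 leaving out each. For the chaperone arm the median with Sox11 was -0.47 on log2(TPM + 1) or log2(TPM + 0.1), -0.41 without both libraries and -0.77 to -0.37 leaving out each, with Sox11 K91A -0.41 and -0.72 to -0.41, and for Sox11 K91A minus Sox11 it was 0.06 with the block for both libraries.

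Among the 11 other Atf4 pathway genes called with Sox11, the count was 4 with quality weights or only 2 groups, 6 on log2(TPM + 1), 5 on log2(TPM + 0.1) and 0 to 9 leaving out each library. For Sox11 K91A, 5 became 8 with DESeq2, 2 with either TPM scale, 3 with all genes of at least 1 count or only 2 groups, 10 with the block for both libraries, 15 without both and 0 to 6 leaving out each. Other ER folding genes went from 9 with Sox11 to 14 with DESeq2 or an FDR under 0.1, 2 with quality weights, 4 on either TPM scale, without both libraries or with only 2 groups, and 0 to 12 leaving out each, and from 5 with Sox11 K91A to 10 with DESeq2, 3 with quality weights or either TPM scale, 8 with the block for both, 9 without both or at an FDR under 0.1 and 0 to 5 leaving out each. Cytosolic and mitochondrial chaperones went from 8 with Sox11 to 4 with quality weights, 5 on either TPM scale, with the replicate block, only 2 groups or a fold change above 1.5, 3 without both and 0 to 12 leaving out each, and from 5 with Sox11 K91A to 9 with DESeq2 or an FDR under 0.1, 2 on either TPM scale, 10 without both and 0 to 9 leaving out each.

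Whether replicate numbers pair the samples is not stated, and 2 replicates per group cannot decide it. Deviations of same-numbered libraries correlated by 0.231 for control and Sox11. The values were -0.033 for control and Sox11 K91A and -0.232 for Sox11 and Sox11 K91A. With the replicate block, 13 and 9 members of the Atf4 and chaperone arms were called with Sox11 and 7 and 6 with Sox11 K91A. A block with the Sox11 K91A numbers crossed, chosen after seeing the data, gave 16 and 11, and 11 and 9. Counts were lowest for *Slc7a11* (4 to 20 per library, removed by the filter) and for *Nupr1* (0 to 3 in the virus libraries).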
